A study of Mus musculus with 4 samples.

Results

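The genes described here are 10 regulators of the decision to leave the cell cycle: the D cyclins Ccnd1, Ccnd2 and Ccnd3, the cyclin-dependent kinase (CDK) inhibitors Cdkn1a, Cdkn1b, Cdkn2a, Cdkn2b, Cdkn2c and Cdkn2d, and the retinoblastoma gene Rb1. They were taken by symbol from a table of 54446 genes, in which each of the 10 had 1 row. The cells were muscle stem cells (satellite cells) from the hindlimb of C57BL/6 mice, cultured in F10 medium with 10% HS and P/S. Polyadenylated RNA was sequenced from 2 samples in which LncMyoD, a non-coding RNA gene near Myod1, was the target of siRNA, and from 2 samples given control siRNA. The treatment text gives 48 h before harvest, and it names LncMyoD as the siRNA target for the control samples as well, so the groups rest on the titles, descriptions and treatment tags. No row of the table is named LncMyoD, so the level of the targeted transcript was not analysed here. Age, sex and number of animals are not given in the labels used here. Nor do the labels say whether replicates were separate cultures, so any p reflects the spread of these 4 samples alone, and that spread may be technical.

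D cyclins bind and activate CDK4 and CDK6, which phosphorylate the retinoblastoma protein and so free E2F factors to switch on genes of DNA synthesis. INK4 inhibitors block CDK4 and CDK6, while CIP/KIP inhibitors bind a wider range of cyclin and CDK complexes. In myoblasts, permanent exit from the cycle accompanies differentiation, with p21 and the retinoblastoma protein among its best known effectors and Myod1 among the known activators of p21.

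Values are FPKM, sequenced fragments divided by transcript length and by the library's mapped fragments, a scale that allows levels of different genes to be set side by side. A transcript of 1 kb at 1 FPKM rested on an estimated 36.7 and 41.1 reads in knockdown replicates 1 and 2 and on 39.1 and 39.0 reads in control replicates 1 and 2. The cells carried myogenic markers: 7 of 8 averaged at least 1 FPKM, among them Myog, a factor of differentiating myoblasts, at 3406 and 2793 FPKM in knockdown and 4196 and 3931 FPKM in control. Pax7, which marks undifferentiated satellite cells, had 1.40 and 0.625 FPKM in knockdown and 1.02 and 0.859 FPKM in control. Of the markers of other cells, the macrophage genes Ptprc, Adgre1 and Itgam and the endothelial gene Kdr were listed at 0 in every library. The endothelial and macrophage lists summed to 1.34 to 2.68 and 0.271 to 1.07 FPKM in knockdown libraries and to 0.889 to 1.81 and 0.607 to 1.09 FPKM in control libraries. The fibro-adipogenic list, with 1 of 5 genes at a mean of 1 FPKM or more, summed to 2.52 to 3.32 FPKM in knockdown and 4.34 to 4.79 FPKM in control. The Schwann list also had 1 of 5 genes at that level, Ncam1, which muscle cells express too, and it summed to 142 to 156 FPKM in knockdown and 138 to 141 FPKM in control. The smooth muscle and pericyte list had 3 of 5 genes at that level, and its sums are given with Cdkn1a.

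Cdkn1a is the member with the highest level, and its promoter sequences are shown because it also had the lowest p of the 10. Each line gives the 250 bases before an annotated start, from RefSeq on GRCm38.p6, 5′ to 3′ on the plus strand. The upstream start window is chr17:29090729-29090978 and the downstream one chr17:29093519-29093768. Capitals mark a pair of p53 half-sites in the first and an E-box in the second.

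Cdkn1a, upstream start: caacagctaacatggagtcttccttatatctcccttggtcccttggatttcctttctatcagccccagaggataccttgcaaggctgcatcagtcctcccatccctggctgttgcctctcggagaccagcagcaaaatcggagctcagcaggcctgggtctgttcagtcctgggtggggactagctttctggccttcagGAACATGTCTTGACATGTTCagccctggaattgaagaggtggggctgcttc

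Cdkn1a, downstream start: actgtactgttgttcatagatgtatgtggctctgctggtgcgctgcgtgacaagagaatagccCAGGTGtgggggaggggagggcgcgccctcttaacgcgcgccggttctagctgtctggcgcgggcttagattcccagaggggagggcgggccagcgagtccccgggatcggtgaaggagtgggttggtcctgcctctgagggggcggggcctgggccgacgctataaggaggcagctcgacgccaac

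The capitals in the upstream window are a 20-base match to the p53 consensus, 2 half-sites with no spacer and at most 1 mismatch, beginning 51 bases before the start. Such a match was found in 0.0761% of 32851 promoters of the same length. The capitals in the downstream window are an E-box (CANNTG, the core letters bound by myogenic bHLH factors, which reads the same on both strands as a pattern), CAGGTG, 187 bases before the start. E-boxes were found in 66.2% of all promoters. Of 11 member promoters, from 7 members with an entry, 2 had an E-box, the other being CAAGTG in Cdkn2b, 37 bases before its start. The E2F letters TTTCCCGC or TTTGGCGC on either strand were found in 1 of the 11, the upstream promoter of Cdkn2a, and in 1.3% of all promoters. These matches describe letters only, since no binding was measured here.

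The 10 genes gave no call between knockdown and control. The 7 with a mean of at least 1 FPKM were tested with all other such genes by limma on log2(FPKM + 1), and 0 of them passed an adjusted p of 0.05, where 0.055% of the 10900 genes tested did (6 genes). At an unadjusted p under 0.05, 1 of the 7 was found, Cdkn1a, against 7.08% of all genes. That count was 0 without the trend and 2 with the replicate block, where Ccnd3 was the second. Ccnd3 had an unadjusted limma p of 0.0828 in the main fit and 0.0377 with the block. Which member passed, if any, also depended on the control library left out. The median log2 fold change, knockdown minus control, was 0.025 over the 7 members and 0.026 over all genes tested, with 3 members negative and 4 positive. The member median was 0.12 without knockdown replicate 1, -0.077 without knockdown replicate 2, 0.0012 without control replicate 1, 0.095 without control replicate 2 and -0.0025 with median ratio scaling. Both knockdown values lay below both control values in 2 of the 7 and above them in 2, against 16.3% and 22.1% of all genes (38.5% either way). Ccnd2, Cdkn1b and Cdkn2a had means under 1 FPKM and are described by their values.

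**Figure D1:**
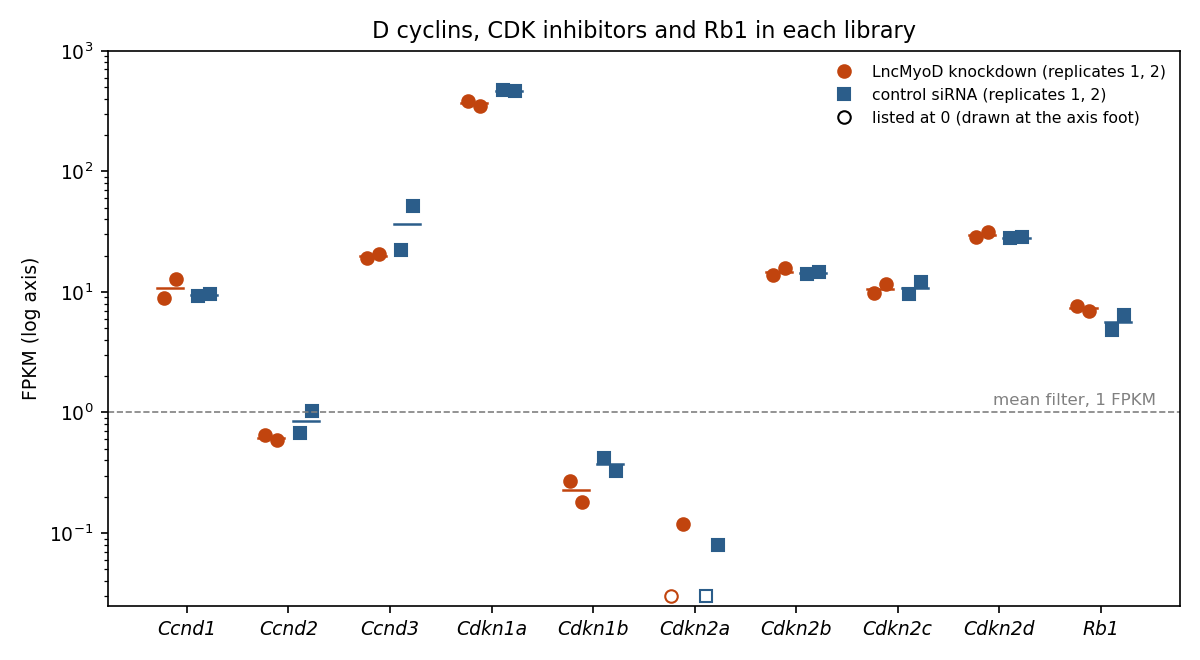
FPKM on a log axis for each of the 10 members, with knockdown libraries as circles left of control libraries as squares and a line at each group mean where no library is at 0. Cdkn1a stands between 347 and 472 FPKM, no other member exceeds 51.6 FPKM, and Ccnd2, Cdkn1b and Cdkn2a average under 1 FPKM.

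By level, Cdkn1a came first with a mean of 416 FPKM over the 4 libraries, and its range did not touch that of any other member. Cdkn2d, at 29.0 FPKM, and Ccnd3, at 28.4 FPKM, followed with overlapping ranges. Cdkn2b averaged 14.6 FPKM, and below it Cdkn2c, at 10.8 FPKM, and Ccnd1, at 10.2 FPKM, overlapped each other. Rb1 averaged 6.46 FPKM. The 3 lowest were Ccnd2 at 0.735, Cdkn1b at 0.299 and Cdkn2a at 0.0496 FPKM, with ranges apart from the members above them.

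Among the D cyclins, Ccnd3, the form known to accumulate as myoblasts differentiate, had 19.2 and 20.7 FPKM in knockdown and 22.3 and 51.6 FPKM in control. Control replicate 2 stood apart from the 3 other libraries, at 2.31 times control replicate 1. The difference on the log2 scale was -0.74 ± 0.36 (SE) with a 95% interval of -1.61 to 0.13 and a limma adjusted p of 0.712. It was -0.15 without control replicate 2 and -1.33 without control replicate 1, so 1 control library decides its size. Ccnd3 (chromosome 17, 47505051 to 47599691, plus strand, GRCm38) has 21 annotated transcripts, of which the 16 coding ones run from 277 to 2113 bases, and the table holds 1 value for all of them. Its last 361 exonic bases overlap Bysl on the opposite strand, which had 35.2 and 31.0 FPKM in knockdown and 31.7 and 26.8 FPKM in control, and no strand setting is given. The pseudogene copy Ccnd3-ps had 1.051 and 0.939 FPKM in knockdown and 1.59 and 0.962 FPKM in control, so its own value in control replicate 2 was not high. What part transcript assignment or the overlap has in that value was not tested.

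Ccnd1, the D cyclin that mitogens induce, had 8.92 and 12.8 FPKM in knockdown and 9.30 and 9.64 FPKM in control. The control values sat close together and between the knockdown values. Its log2 fold change was 0.16 ± 0.20 (SE), with a 95% interval of -0.33 to 0.65 and a limma adjusted p of 0.895. It was 0.40 without knockdown replicate 1 and -0.08 without knockdown replicate 2. Ccnd1 lies on chromosome 7, 144929931 to 144939925, minus strand, and 23.4% of its exonic bases overlap LTO1 on the other strand. LTO1 had 2.12 and 1.98 FPKM in knockdown and 1.52 and 1.69 FPKM in control.

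Ccnd2 (chromosome 6, 127125162 to 127152193, minus strand) is the third D cyclin. Its values were 0.648 and 0.590 FPKM in knockdown and 0.680 and 1.02 FPKM in control. Both knockdown values were lower, by a small margin to control replicate 1. In the fit of 24969 genes without the filter on low values its log2 fold change was -0.19 ± 0.19 (SE) with a limma adjusted p of 0.830.

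The summed D cyclins stood at 28.7 and 34.1 FPKM in knockdown and 32.3 and 62.2 FPKM in control. Ccnd3 made up 66.7% and 60.8% of the sum in knockdown and 69.1% and 82.9% in control. Ccnd1 made up 31.0% and 37.5% in knockdown and 28.8% and 15.5% in control, and Ccnd2 between 1.64% and 2.26% in any library. The share of Ccnd3 was thus lower, and that of Ccnd1 higher, in both knockdown libraries than in both controls. With Ccnd2 so small a part, the 2 shares mirror each other and are 1 observation. The level of Ccnd1 itself overlapped between groups. The mean share of Ccnd3 differed by -12.2 percentage points, knockdown minus control, and that of Ccnd1 by 12.1, each with an exact two-sided permutation p of 0.333, which is the smallest that 2 against 2 allow. Without control replicate 2 these differences were -5.32 and 5.44 percentage points.

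Cdkn1a codes for p21, a CIP/KIP inhibitor induced by p53 and during myogenic differentiation. It had 384 and 347 FPKM in knockdown and 472 and 459 FPKM in control. The groups did not overlap, and the knockdown mean of 366 ± 26.0 FPKM was 0.785 times the control mean of 466 ± 9.10 FPKM (SD, n = 2 each). On the log2(FPKM + 1) scale the difference was -0.35 ± 0.09 (SE), with a 95% interval of -0.56 to -0.14. The limma adjusted p was 0.566, the unadjusted p was 0.00616, and 114 genes had a lower one. The log2 fold change ran from -0.42 to -0.28 over the 11 alternatives, most of which could not turn its sign. No filter, a filter at 5 FPKM, no trend and the replicate block leave the value as it is. Because the groups did not overlap, leaving out 1 library could not turn it either. Alternatives with all 4 libraries gave limma adjusted p-values from 0.486 to 0.772. In fits without 1 library, the other group alone supplies the spread and the lone sample is assumed to vary like it. The unadjusted p was 0.0575 without the trend, 0.0727 without control replicate 1 and 0.0518 without control replicate 2. In bulk RNA, fewer cells of a kind and less RNA per cell cannot be told apart. Beside it, the 8 myogenic markers, most of their sum being Myog, summed to 4039 and 4427 FPKM at the lowest and highest in knockdown and 5147 and 5426 FPKM in control. The 5 smooth muscle and pericyte markers, nearly all Acta2, summed to 2578 to 2672 FPKM in knockdown and 3025 to 3169 FPKM in control. Of the rest of that list, Cspg4 and Mcam averaged 1.25 and 1.39 FPKM, and Rgs5 and Myh11 0.043 and 0.011 FPKM. The sum is thus in effect the value of Acta2, which alone does not identify such cells. The part of either marker list in the Cdkn1a value was not tested. Cdkn1a spans chromosome 17, 29090976 to 29100727, plus strand, with 4 coding transcripts of 922 to 2080 bases.

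By the distance between centred log2(FPKM + 1) profiles over the 4 libraries, the non-member genes most like Cdkn1a were Gm47820, Gm12337 and Cyr61, at distances of 0.0051, 0.035 and 0.038. Cyr61, a secreted matrix-associated protein, had 648 and 580 FPKM in knockdown and 776 and 782 FPKM in control. The other 2 genes stood under 2 FPKM in each library. With 4 libraries and 10900 genes, such closeness is a description only.

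Cdkn1b codes for p27, the other CIP/KIP inhibitor here, and lies on chromosome 6, 134920401 to 134925513, plus strand. It had 0.272 and 0.180 FPKM in knockdown and 0.416 and 0.329 FPKM in control. Both knockdown values lay below both control values, but the level rested on an estimated 13 to 74 reads a library, depending on the transcript length assumed. In the fit without the filter its log2 fold change was -0.16 ± 0.09 (SE) with a limma adjusted p of 0.818, a scale on which the added 1 compresses changes of so low a gene.

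Of the INK4 inhibitors, 3 were tested, and for each the 95% interval spanned 0. Cdkn2d, which codes for p19INK4d (minus strand of chromosome 9, 21288410 to 21291407), had 28.5 and 31.2 FPKM in knockdown and 27.9 and 28.4 FPKM in control. Knockdown replicate 1 exceeded control replicate 2 only narrowly. By limma the log2 fold change was 0.08 ± 0.12 (SE), with a 95% interval of -0.20 to 0.37 and a limma adjusted p of 0.910.

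Cdkn2b, coding for p15INK4b (minus strand of chromosome 4, 89306299 to 89311039), had 13.7 and 15.7 FPKM in knockdown and 14.2 and 14.7 FPKM in control. The control values lay between the knockdown values. The difference on the log2 scale was 0.03 ± 0.14 (SE), with a 95% interval of -0.32 to 0.37 and a limma adjusted p of 0.982.

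Cdkn2c, coding for p18INK4c (minus strand of chromosome 4, 109660876 to 109667189), had 9.75 and 11.5 FPKM in knockdown and 9.63 and 12.1 FPKM in control. Replicates within a group differed more than the group means did. Its log2 fold change was -0.02 ± 0.18 (SE), with a 95% interval of -0.46 to 0.41 and a limma adjusted p of 0.988.

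Cdkn2a (chromosome 4, 89274471 to 89294653, minus strand) codes for p16INK4a and, in another reading frame from a second first exon, for p19ARF, and its row does not separate them. It was listed at 0 in knockdown replicate 1 and at 0.118 FPKM in knockdown replicate 2, and at 0 in control replicate 1 and 0.0804 FPKM in control replicate 2. The values above 0 correspond to an estimated 2.67 to 4.34 reads, too few to compare the groups. Its neighbour Cdkn2b had at least 13.7 FPKM in every library.

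**Figure D2:**
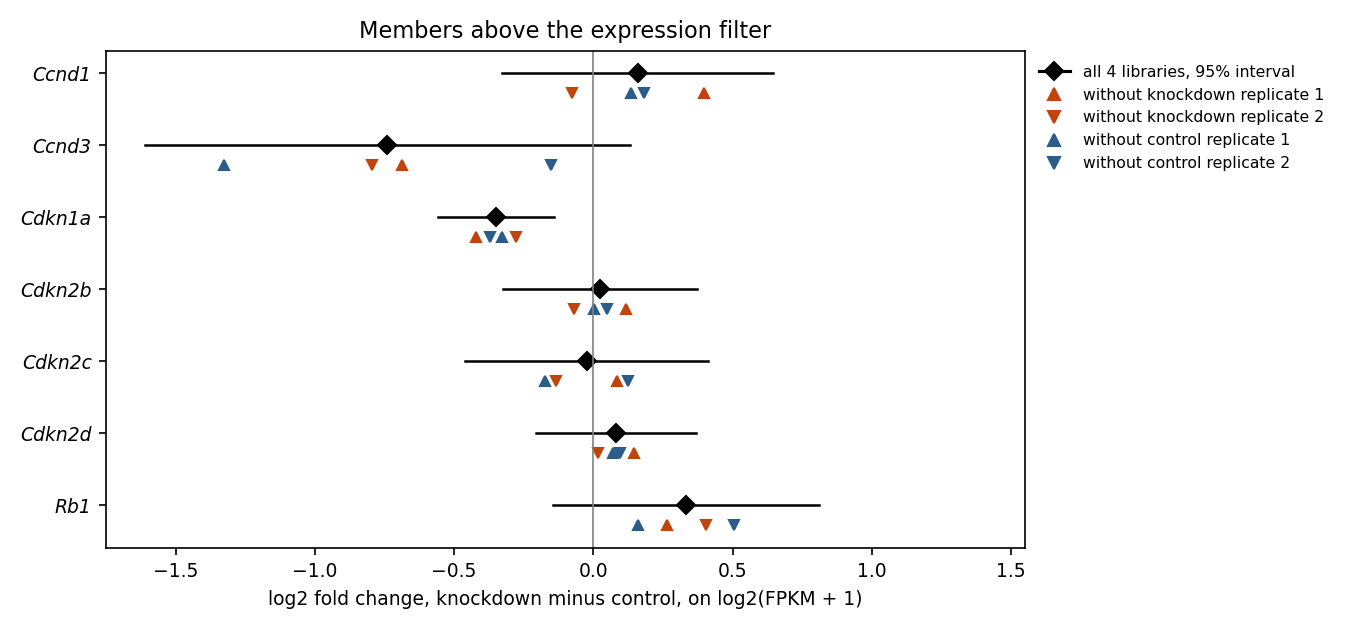
Log2 fold changes, knockdown minus control, of the 7 tested members with 95% intervals (diamonds and lines), and below each the value with 1 library left out (triangles). Cdkn1a stays between -0.42 and -0.28, while Ccnd3 runs from -1.33 to -0.15 and Ccnd1, Cdkn2b and Cdkn2c have values on both sides of 0.

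Cdkn1c (p57), a CIP/KIP gene that is not a member, had 55.4 and 21.5 FPKM in knockdown and 15.1 and 42.6 FPKM in control. It is left out of the sums, shares and ratios here, which hold for the members only. Summed over the 6 member inhibitors, the level was 436 and 406 FPKM in knockdown and 524 and 515 FPKM in control. Cdkn1a made up 88.0% and 85.5% of that sum in knockdown and 90.1% and 89.2% in control. The mean share differed by -2.86 percentage points, with an exact two-sided permutation p of 0.333, the smallest possible. The 4 INK4 genes together had 52.0 and 58.6 FPKM in knockdown and 51.7 and 55.3 FPKM in control, so the lower inhibitor sum in knockdown lay mostly in Cdkn1a. The inhibitor sum was 15.2 and 11.9 times the D cyclin sum in knockdown and 16.3 and 8.28 times in control. These ratios overlapped between the groups (exact permutation p of 1).

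**Figure D3:**
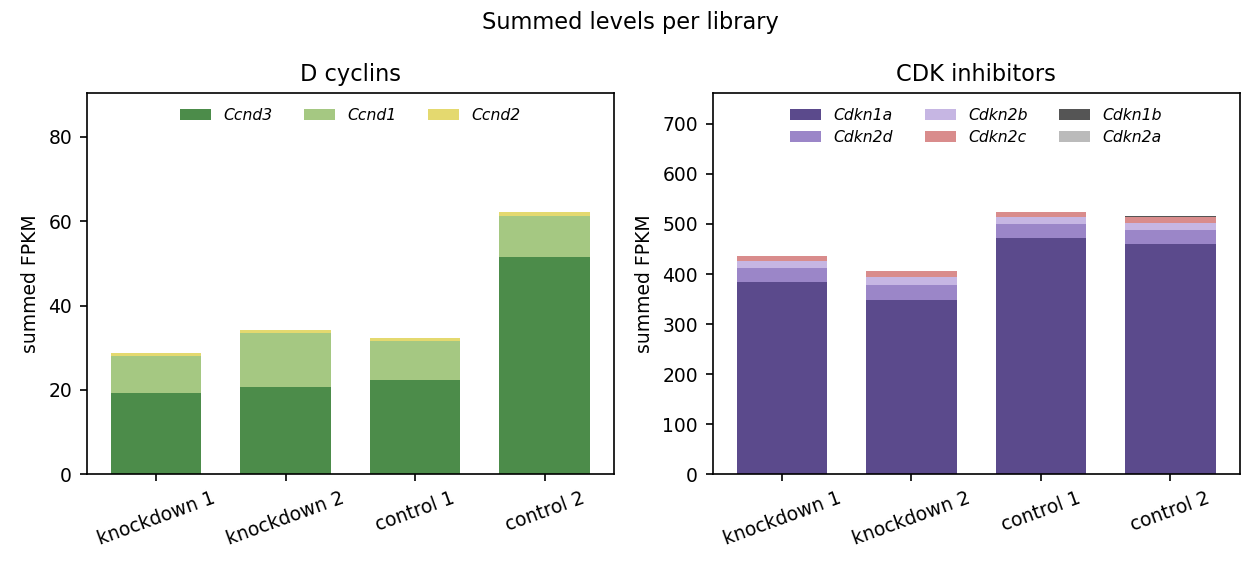
Summed FPKM per library of the 3 D cyclins (left) and the 6 member CDK inhibitors, without Cdkn1c (right), stacked by gene, with knockdown libraries left of control libraries. The D cyclin sum is 62.2 FPKM in control replicate 2 and 28.7 to 34.1 FPKM in the other libraries, and Cdkn1a fills 85.5% to 90.1% of each inhibitor bar.

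Rb1, the pocket protein that D cyclin kinases phosphorylate, had 7.70 and 6.89 FPKM in knockdown and 4.83 and 6.41 FPKM in control. Both knockdown values were the higher ones, and the 2 controls differed by 1.33 times. On the log2(FPKM + 1) scale the difference was 0.33 ± 0.20 (SE), with a 95% interval of -0.14 to 0.81 and a limma adjusted p of 0.755. It was 0.16 without control replicate 1 and 0.51 without control replicate 2. Rb1 (chromosome 14, 73183673 to 73325822, minus strand) shares 14.9% of its exonic bases with Rcbtb2 and Lpar6 on the opposite strand, and Rcbtb2 had 8.88 and 7.12 FPKM in knockdown and 8.47 and 6.81 FPKM in control.

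Genes that act with the members were followed in 6 lists, and 0 of their 74 tested genes passed the adjusted threshold, against 0.00917% of all genes called higher and 0.0459% called lower. At an unadjusted limma p under 0.05 there were 8 of the 74 (10.8%), against 7.08% of all genes. The list of CDK partners of D cyclins holds kinases, kinase activators and Cdc37, and also Cdk2. Of this list 7 genes were tested, with 3 negative and 4 positive and a median log2 fold change of 0.12. That median was -0.06 without knockdown replicate 2 and -0.03 without control replicate 1. Cdk4, the main D cyclin partner by level, had 106 and 135 FPKM in knockdown and 115 and 105 FPKM in control. Cdk7, part of the kinase that activates other CDKs, had 26.97 and 23.9 FPKM in knockdown and 27.6 and 29.97 FPKM in control, and Cdk2, the partner of cyclin E, had 33.6 and 34.9 FPKM in knockdown and 16.5 and 37.8 FPKM in control. Their limma adjusted p-values were 0.806 and 0.818.

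Among the other pocket proteins and the E2F factors, 5 of 12 were negative and 7 positive, with a median of 0.11, which was -0.03 without control replicate 1 and -0.18 with a filter at 5 FPKM. E2f8, an E2F that represses transcription, had 16.8 and 18.2 FPKM in knockdown and 24.2 and 22.1 FPKM in control (log2 fold change -0.39, limma adjusted p of 0.649). Tfdp2, a partner subunit of E2F factors, had 2.69 and 2.67 FPKM in knockdown and 3.93 and 5.03 FPKM in control (log2 fold change -0.57, limma adjusted p of 0.664). Neither gene overlapped between groups, and both had lower values in knockdown. E2f8 and Tfdp2 were named for the lowest p of their list, which favours groups that do not overlap. Of the 12 genes, both knockdown values lay below both controls for 2 and above them for 3. The shares over all genes were 16.3% and 22.1%. The pocket protein genes Rbl2 and Rbl1, chosen after their values were seen because they are relatives of Rb1, had the higher values in both knockdown libraries. Rbl2 had 2.76 and 2.37 FPKM in knockdown and 1.40 and 1.53 FPKM in control (limma adjusted p of 0.692), and Rbl1 had 4.503 and 5.03 FPKM in knockdown and 3.79 and 3.98 FPKM in control (limma adjusted p of 0.814).

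Of 15 genes listed as E2F targets of S phase, 7 were negative and 8 positive, with a median of 0.016. The list includes Mki67 and Top2a, which are genes of dividing cells rather than of S phase alone. That median was 0.090 without knockdown replicate 1, -0.058 without knockdown replicate 2, -0.0080 without control replicate 1 and -0.013 with median ratio scaling. Top2a, a topoisomerase of dividing cells, had 17.1 and 21.7 FPKM in knockdown and 12.7 and 13.5 FPKM in control (log2 fold change 0.53, limma adjusted p of 0.627). Cdt1, a licensing factor of replication origins, had 7.90 and 8.68 FPKM in knockdown and 11.4 and 10.4 FPKM in control (log2 fold change -0.36, limma adjusted p of 0.698). The groups did not overlap for either of these targets, which were named for their low p, and the signs were opposite. Of the 15 targets, both knockdown values lay below both controls for 3 and above them for 3. The shares over all genes were 16.3% and 22.1%.

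The later cyclins and other inhibitors had 5 negative and 5 positive of 10, with a median of -0.02, which was -0.10 without knockdown replicate 1 and 0.018 without knockdown replicate 2. Ccng1, a cyclin G gene induced by p53, had 96.8 and 105 FPKM in knockdown and 122 and 128 FPKM in control (log2 fold change -0.30, limma adjusted p of 0.631). Ccng2, its relative linked to growth arrest, had 7.02 and 6.16 FPKM in knockdown and 2.69 and 4.94 FPKM in control (log2 fold change 0.70, limma adjusted p of 0.692). The third CIP/KIP gene, Cdkn1c (p57), was also chosen with its values known and had 55.4 and 21.5 FPKM in knockdown and 15.1 and 42.6 FPKM in control, with overlapping groups.

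Genes for the turnover of D cyclins and p27 had 5 negative and 8 positive of 13, with a median of 0.05. Cul4b, a ubiquitin ligase scaffold, had 13.5 and 12.4 FPKM in knockdown and 10.5 and 9.64 FPKM in control, and Fbxo4, an F-box protein linked to cyclin D1 degradation, had 5.37 and 5.71 FPKM in knockdown and 4.38 and 3.63 FPKM in control. Their limma adjusted p-values were 0.698 and 0.712.

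Of 17 tested regulators that act upstream of the members, 6 were negative and 11 positive, with a median of 0.07, which was -0.06 without control replicate 1. Myog, already given, had a log2 fold change of -0.40 with a limma adjusted p of 0.607. Bmi1, a Polycomb repressor of the Cdkn2a locus, had 12.1 and 13.8 FPKM in knockdown and 9.31 and 9.36 FPKM in control (log2 fold change 0.43, limma adjusted p of 0.653). Trp53, Myod1 and Mdm2 were likewise picked with their values known. Trp53, which codes for p53, had 62.3 and 73.9 FPKM in knockdown and 56.3 and 59.1 FPKM in control (limma adjusted p of 0.718). Myod1 had 583 and 667 FPKM in knockdown and 698 and 691 FPKM in control (limma adjusted p of 0.752). Mdm2, a p53 target whose product degrades p53, had 26.7 and 27.4 FPKM in knockdown and 32.3 and 28.7 FPKM in control (limma adjusted p of 0.806). The groups did not overlap for any of these genes, with knockdown higher for Trp53 and lower for Myod1 and Mdm2. Of the 17 in the list, both knockdown values lay below both controls for 4 and above them for 5. The shares over all genes were 16.3% and 22.1%.

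**Figure D4:**
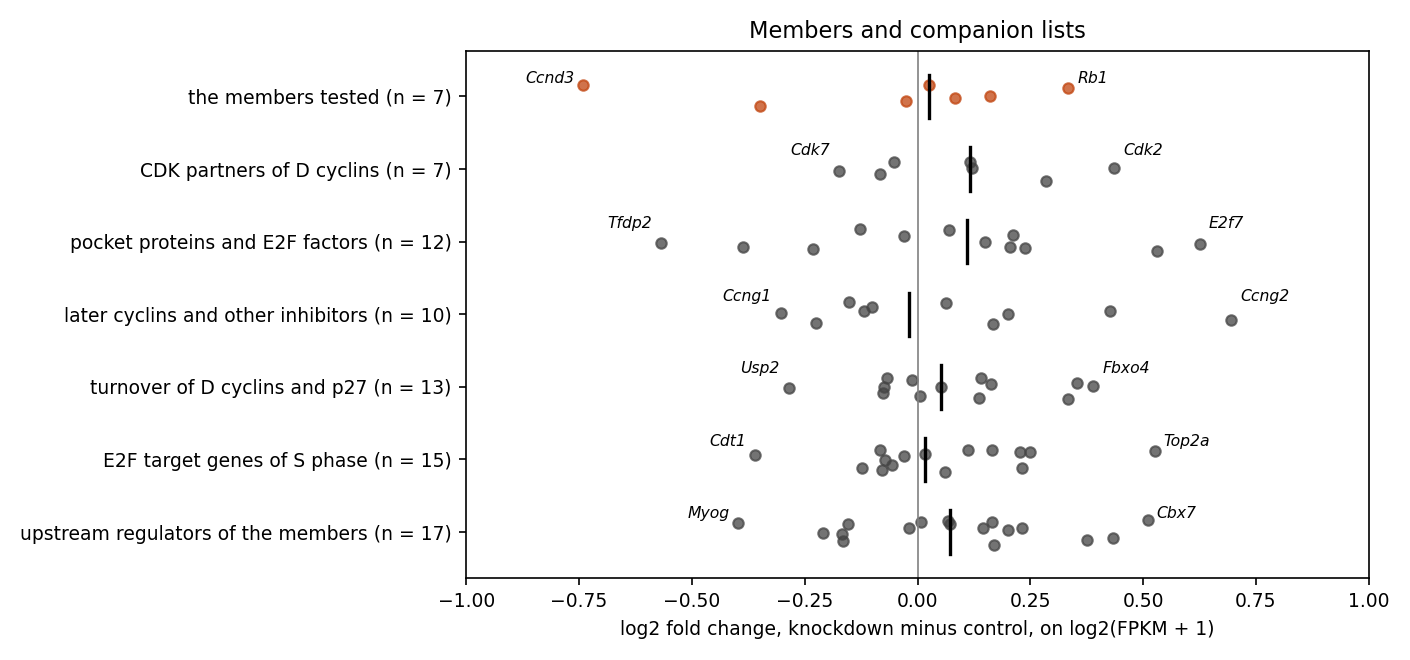
Log2 fold changes, knockdown minus control, of the 7 tested members (top) and of the tested genes in the 6 companion lists, 1 point per gene, a bar at each median and the extreme genes named. Every median lies between -0.02 and 0.12, and each list has genes on both sides of 0.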

How the data were processed

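The samples were 2 libraries of LncMyoD knockdown and 2 of control siRNA, grouped by title. Per the labels' protocols, cDNA came from the SMART-Seq v4 kit and libraries from the Ovation Ultralow system, read as pairs of 150 nt on a NextSeq 500. Per the submitters' processing notes the build was mm10 and the tools were HISAT2 2.1.0, StringTie 1.3.3, SAMtools 1.3, Trimmomatic 0.36 and bcl2fastq 2.19, with no role or order stated. Neither a strand setting nor an annotation release is given in the sources used here. The authors deposited 1 FPKM value per gene and library; the unit was read from the values, with column sums of 317223 to 322496.

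Depth was estimated from genes with 1 exon and 1 transcript, using only low values of FPKM times length. The step of 1 covered base was fitted to these values in each library. Values fell within 0.1 of a whole number of steps for 82.2% to 84.3%. A step fixed beforehand would give 20% by chance, which is not a like comparison for a fitted one. Whole read counts were not recovered, so no count model was used. limma 3.58.1 (R 4.3.3), with a mean-variance trend and 2 residual degrees of freedom, tested, two-sided, the log2(FPKM + 1) values of 10900 genes that averaged 1 FPKM or more, with Benjamini-Hochberg adjustment at 0.05. This scale understates changes of low genes. The 95% intervals had a median half-width of 0.48. Data were simulated for this comparison with 10900 genes, 200 of them changed, and normal noise. The spread of each gene was drawn anew from the distribution of variances that limma fitted over all genes, and is not that gene's own. The folds were set on the log2(FPKM + 1) scale, so in low genes they stand for larger FPKM changes. In these simulations 1.72% of 1.5-fold, 22.5% of 2-fold and 81.4% of 4-fold changes were recovered, and 4.95% of calls were false. The noise follows the model of the test, so these rates need not hold for the deposited values. Shares were compared by exact permutation (scipy 1.17.1).

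GENCODE M21 gave coordinates and lengths on GRCm38, to which mm10 corresponds. Promoters came from RefSeq, and 7 of 10 members matched by symbol. The members, the 6 companion lists and the marker lists were chosen with earlier results of these data known. The genes named were all members and, per list, the 2 with the lowest p where none passed; exceptions are said to be chosen after their values were seen, and Myog, Pax7, Cdk4 and genes that overlap members are given for context. Alternatives were other pseudocounts, filters, scalings, a fit without the trend, a replicate block and leaving out each library.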

Additional observations from a re-analysis of the deposited data

How the results depend on the processing

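No member was called under any of the 11 alternatives (pseudocount 0.1, no filter, a filter at 5 FPKM, no trend, quantile normalization, median ratio scaling, replicate block, each library left out); in fits without 1 library, the lone sample is assumed to vary like the other group. Over all genes, 6 were called, but 0 without a filter on low values (limma; 1508 of 24969 at an unadjusted p under 0.05), 3 with the replicate block, and 5 to 15 when 1 library was left out. Same-numbered libraries did not deviate together over genes (correlation of deviations -0.02). That value cannot show how replicates were made, so whether the numbers pair libraries is not known. The replicate block changed no call of a member. Signs turned in members near 0: with 1 library left out, Ccnd1 ranged from -0.077 to 0.40, Cdkn2b from -0.068 to 0.12 and Cdkn2c from -0.17 to 0.13, and Cdkn2b had -0.0025 with median ratio scaling. The log2 ratio of inhibitors to D cyclins differed by 0.21, with a range of -0.27 to 0.70 over libraries left out, and the Ccnd2 share by 0.12 percentage points, with a range of -0.14 to 0.38. List medians with 1 library left out ranged from -0.057 to 0.24 for CDK partners, -0.030 to 0.15 for pocket proteins and E2F factors, -0.10 to 0.018 for later cyclins, -0.058 to 0.090 for E2F targets, -0.077 to 0.12 for the members, and -0.055 to 0.079 for upstream regulators. With the filter at 5 FPKM, which tests fewer genes, the median was -0.18 for pocket proteins and E2F factors and -0.0035 for turnover genes. Median ratio scaling left 3 members with groups apart, against 4. With 2 libraries per group, the 95% intervals of the tested members, on the FPKM + 1 scale, still allow a knockdown level as low as 0.327 times control for Ccnd3, the widest interval, and as high as 1.57 times for Ccnd1 and 1.76 times for Rb1. The cause of these differences was not tested.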
